A study of Mus musculus with 16 samples.

Results

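The data described here are transcript levels in whole testis of C57BL/6 mice at P60 (postnatal day 60), compared between Emi2 knockout and wild type. The 4 arrays, 2 of each genotype, were chosen by their titles from the 16 arrays of the series, 2 for each genotype at P15, P21, P30 and P60. Labelled RNA was hybridised to Illumina bead arrays, where beads that carry one short oligonucleotide, the probe, are read by their brightness. The allele behind the knockout label is not given in the sources used here. Nor do they say whether the 2 arrays of a group are 2 animals, and p-values therefore cover the spread between arrays, which may be technical. Of 26511 rows, 822 control rows were dropped and 25689 regular probes were kept, and 17355 of these were tested because they were detected (detection p under 0.05) on at least 2 of the 16 arrays.

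Emi2 blocks the anaphase-promoting complex, a ubiquitin ligase whose activity lets a dividing cell leave metaphase, and it is best known for holding the mouse egg in metaphase of meiosis until fertilisation. In the young mouse testis the first germ cells pass through meiosis as a wave, so that spermatocytes appear before round spermatids and round spermatids before elongating ones, while the adult testis holds all stages at once. Transcripts of late germ cells therefore become a large part of testis RNA as the animal matures. In whole testis, fewer cells of a type and less RNA per cell cannot be told apart.

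Median signals before normalization were 156.0 and 156.8 on the P60 wild-type arrays and 199.1 and 154.0 on the knockout arrays, and between 13167 and 13648 regular probes were detected per P60 array. Gene names could not be used. Ribosomal proteins are made abundantly by all cells, and of 64 probes with such names 31 were detected on both wild-type arrays at P60 (48.4%, Clopper-Pearson 95% interval 35.8% to 61.3%, counting error only). The share was 48.7% for 1154 probes with olfactory receptor names and 47.8% for all regular probes. Probes named for 58 markers of germ cells and of somatic testis cells numbered 70, of which 37 were detected in that way (52.9%). Of the 48 tested, 6 were lower and 16 higher in knockout, shares near those of all tested probes (14.5% and 27.3%). With names not borne out by detection, neither the tissue label nor a cell type was checked by name. All results below are for probes, and identifiers serve as row labels only.

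The targeted gene would check the genotype labels, but the probe named for it does not. The probe named Fbxo43, the symbol of Emi2, is ILMN_2734262. Its log2 values at P60 were 10.57 and 10.49 on the wild-type arrays, against 9.53 and 9.61 in knockout. Both knockout values lay below the wild-type values, with a log2 difference of -0.96 ± 0.20 (standard error, limma adjusted p = 0.00239). At P15 its mean was 11.10 in wild type and 11.09 in knockout, above the P60 wild-type level. With the name not borne out by levels in these tables, these values identify no transcript.

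P60 knockout testis differed from wild type over much of the array. Of 17355 tested probes, 7244 (41.7%) passed an adjusted p of 0.05 in limma, 2513 of them lower in knockout (14.5%) and 4731 higher (27.3%). The falls were fewer and larger: their median log2 difference was -1.15 (a 2.21-fold fall) and the largest was -7.80. The rises had a median of 0.70 (1.63-fold) and reached 3.79. At least 2-fold, 1404 probes were lower (8.09%) and 905 higher (5.21%), and at least 16-fold, 256 were lower (1.48%) and 0 higher (0%). With the normexp background correction the counts of at least 2-fold were 2109 lower and 2678 higher from the signals before normalization. The cause of that shift was not tested.

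These differences were set against the spread between replicate arrays. Across tested probes the root-mean-square log2 difference was 0.234 between the P60 wild-type arrays and 0.249 between the P60 knockout arrays. Between the genotypes it averaged 0.992. The genotypes did not overlap for 72.1% of all tested probes. Among called probes they hardly could, and did so for 1 of the 2513 lower and 0 of the 4731 higher ones. The plot of genotype and replicate differences shows the same asymmetry, with a long tail to the left and a broad shoulder to the right.

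**Figure D1:**
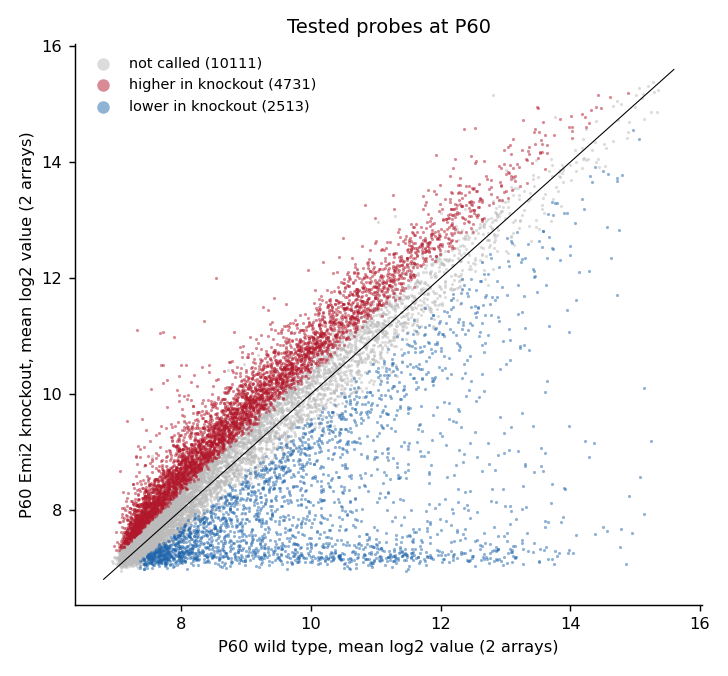
Mean log2 value of each tested probe in P60 wild type (horizontal axis) and P60 Emi2 knockout (vertical axis), each the mean of 2 arrays, with the line of equality. The 2513 lower probes (blue) spread down to the background level, whereas the 4731 higher probes (red) form a band close above the line.

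**Figure D2:**
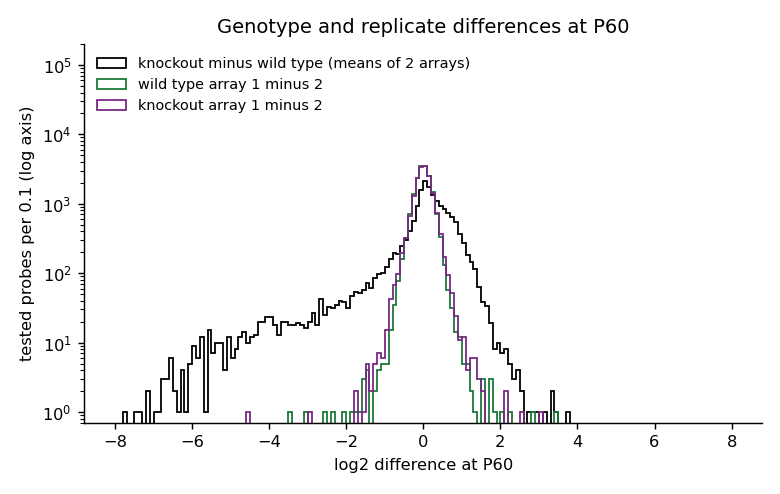
Number of tested probes per 0.1 of log2 difference at P60 on a log axis, for knockout minus wild type (black) and for the 2 arrays within wild type (green) and within knockout (purple). Genotype differences reach -7.80 and 3.79, and replicate differences reach 3.49 in size in wild type and 4.54 in knockout, with medians of 0.129 and 0.132 in size.

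The balance of falls and rises rests on where no change is placed. Over all tested probes the log2 difference had a median of 0.125, while probes detected on none of the 4 P60 arrays had a median of 0.00425 and the control rows one of -0.0105. Of the control rows, 801 were dim (mean log2 up to 8), and the 21 brighter ones had a median difference of 0.405 in size. Probes detected on all 4 had a median of 0.289. Tested against the median difference instead of 0, 3169 probes were lower and 3288 higher. Without P60 wild type replicate 2, 2046 were lower and 3001 higher.

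The 8 largest falls were of probes among the brightest in wild type. Falls of this size can start only from bright probes, since values do not go far below background. ILMN_1222251 had log2 values of 14.75 and 14.97 in wild type and 7.08 and 7.05 in knockout. Its signals before normalization were 25304 and 28345 in wild type against 154.8 and 120.8 in knockout. It was detected on neither knockout array, so it was at least 180-fold lower (limma adjusted p = 3.22e-09). ILMN_3110679, the 10th brightest tested probe in wild type, read 15.14 and 15.12 there and 8.01 and 7.86 in knockout, a log2 difference of -7.20 ± 0.26 (standard error, limma adjusted p = 1.47e-09). In knockout it ranked 9318th. ILMN_1213855, with the lowest adjusted p of the 8, fell from 14.48 and 14.68 to 7.62 and 7.65, a log2 difference of -6.94 ± 0.18 (standard error, limma adjusted p = 1.84e-10). In all 3 the knockout arrays lay close together and far below both wild-type arrays. ILMN_3110679 and ILMN_1213855 were still detected on both knockout arrays.

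The other large falls followed the same form. ILMN_3087593 went from 14.68 and 14.87 to 7.39 and 7.32, and was detected on 1 of 2 knockout arrays. ILMN_2703566 was the one probe of the 8 whose knockout arrays stood apart, at 8.10 and 7.24, against 14.83 and 14.75 in wild type. Over the 8 probes the fitted log2 differences ran from -7.80 to -6.80 and the wild-type means from 14.38 to 15.13. All 8 were also lower in knockout at P21 (background 3.63%) and at P30 (background 10.4%), comparisons that share no array with P60. At P15 none was, as 0 of all tested probes passed there in limma (0%, with 195, or 1.12%, at an unadjusted p under 0.05). The fit shared the spread over all ages, and the P15 replicates lay closest, at root-mean-square log2 differences of 0.191 and 0.224. A shared spread is on average wide for P15 and narrow for P21 and P30, where these differences ran from 0.289 to 0.357. Its effect on the calls at each age was not tested. ILMN_1222251 read 6.94 and 7.10 in P15 wild type and 7.18 and 7.09 in P15 knockout, close to its P60 knockout level.

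**Figure D3:**
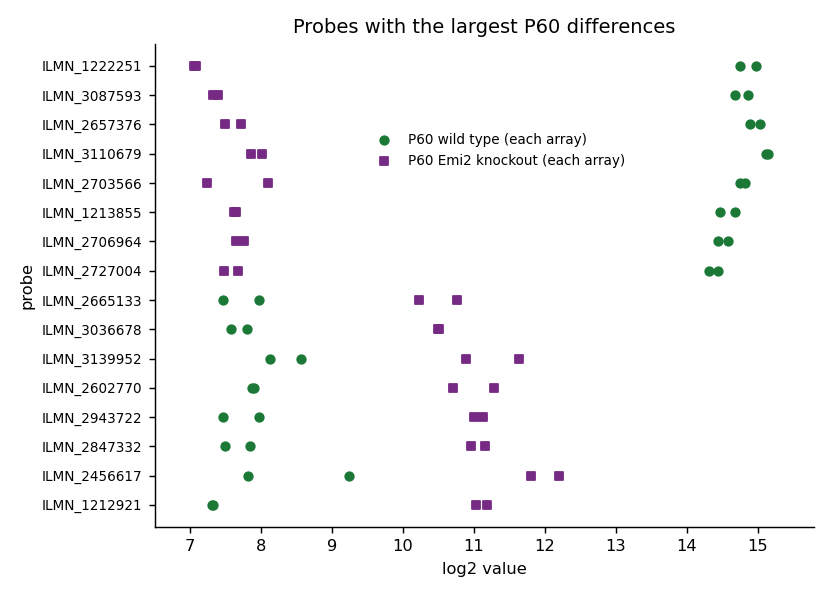
Log2 values of the 16 probes with the largest falls and rises at P60, 1 row per probe, with each wild-type array as a green circle and each knockout array as a purple square. The 8 falls start at 14.32 or above in wild type, and falls of their size need a bright start. The 8 rises end between 10.23 and 12.19 in knockout.

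The 8 largest rises began from wild-type means between 7.32 and 8.53, against a median of 8.08 over all tested probes, and 7 of them were detected on both wild-type arrays. ILMN_1212921 read 7.31 and 7.32 in wild type and 11.19 and 11.03 in knockout. Neither wild-type array detected it, which made it at least 13.6-fold higher (limma adjusted p = 1.85e-09). It was near background on every wild-type array, between 7.04 and 7.32 over the 4 ages, and in knockout it was 8.74 and 8.29 at P21 and 11.16 and 10.89 at P30. Its rise was thus seen in knockout arrays of 3 ages and in no wild-type group.

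ILMN_3036678 went from 7.80 and 7.57 to 10.51 and 10.50, a log2 difference of 2.82 ± 0.17 (standard error, limma adjusted p = 1.07e-07), and it was also higher at P21 and P30. ILMN_2602770 differed in its course: it was 9.38 and 9.05 in wild type at P15, fell there to 7.88 and 7.90 at P60, and was 11.28 and 10.70 in P60 knockout, above its P15 level. ILMN_2456617 had the widest replicate spread of the 8, at 7.82 and 9.25 in wild type and 12.19 and 11.80 in knockout (limma adjusted p = 0.00154). Of the 8, 7 were also higher in knockout at P30 (background 14.5%) and 2 at P21 (background 1.37%). ILMN_2456617 was the one that did not pass at P30, at a log2 difference of 1.56 (limma adjusted p = 0.110).

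Among the 8 brightest tested probes of P60 wild type, 2 fell and 6 did not pass, where 14.5% of all tested probes fell, as did 33 of the 100 brightest in P30 wild type. ILMN_2450460 read 15.24 on both wild-type arrays and 9.24 and 9.13 in knockout, a 66.9-fold fall (limma adjusted p = 3.60e-09). ILMN_2854418 fell from 15.09 and 15.19 to 10.14 and 10.07 (limma adjusted p = 1.00e-08). The others stayed near the top of the scale, which quantile normalization caps at the same value on every array. ILMN_1254421, for example, read 15.33 and 15.23 in wild type and 15.39 on both knockout arrays. ILMN_1248254 read 15.31 and 15.39 against 14.70 and 15.04 (limma adjusted p = 0.274).

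Loss of signal was also counted from detection alone, which does not rest on normalization. Of 25689 regular probes, 845 were detected on both wild-type and neither knockout array at P60, and 788 showed the reverse. The counts were similar but the signals were not. The wild-type-only probes had a median log2 value of 8.36 in wild type, and 246 of them exceeded 10, up to 14.86. The knockout-only probes had a median of 7.55 in knockout, and 1 exceeded 10. In limma 737 of the 845 were lower and 341 of the 788 higher, against 14.5% and 27.3% of all tested probes. Both sets were chosen by detection on the same P60 arrays, so these calls and signals are a description. With a detection p under 0.01 the knockout-only count was 1233, and the wild-type-only count 823. Asked of 1 array fewer, the knockout-only count was 1202 without P60 wild type replicate 1, 1196 without P60 wild type replicate 2, 1260 without P60 Emi2 knockout replicate 1 and 1327 without P60 Emi2 knockout replicate 2. The wild-type-only count was 1283 without P60 wild type replicate 1.

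The 2 sets had different histories on arrays that the choice of probes did not use. Of the 845 wild-type-only probes, 12.9% were detected on both wild-type arrays at P15, 49.1% at P21 and 78.3% at P30. In knockout the shares were 16.1% at P15, 11.6% at P21 and 7.46% at P30. The share rose with age in wild type and fell in knockout, whereas over all regular probes it stayed between 49.6% and 52.5% in these 6 groups. Of the 788 knockout-only probes, 68.7% were detected in wild type at P15, 62.1% at P21 and 23.5% at P30, and in knockout 73.0%, 71.4% and 66.4%.

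Most lower probes were still detected in knockout, though detection does not mean a level far from background. The 1404 lower by at least 2-fold, detected or not, had knockout medians of 7.61 and 7.64. The lowest detected values on these arrays were 7.36 and 7.38. Of the 2513, 1536 (61.1%) were still detected on both knockout arrays, with a median log2 value of 8.50 against 10.14 in wild type. A further 763 were detected on neither knockout array, with medians of 7.19 and 8.65. Of the 4731 higher probes, 4136 (87.4%) were detected on both wild-type arrays too, so that their rise was from one measurable level to another, from a median of 8.97 to 9.82.

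When a probe first appeared in wild type went with what it did at P60. Tested probes were classed by the first age at which both wild-type arrays detected them, from P15, P21 and P30 arrays only. The classes used wild type alone, and P30 and P60 wild type were alike (mean Pearson correlation 0.983). For the P21 and P30 classes such a choice favours falls in knockout over rises, and by how much was not tested. Of the 500 first detected at P30, 57.4% were lower in P60 knockout and 2.60% higher. Of the 1503 first detected at P21, 47.6% were lower and 5.12% higher. Of the 13019 first detected at P15, whether or not detected later, 10.8% were lower and 34.7% higher. Over all tested probes the shares were 14.5% and 27.3%. The remaining 2333, not detected on both arrays at any of these ages, were dim at P60 as well, and 4.41% were lower and 5.02% higher. Without P30 wild type replicate 2, which changes the P30 class itself, 37.9% of that class were lower.

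**Figure D4:**
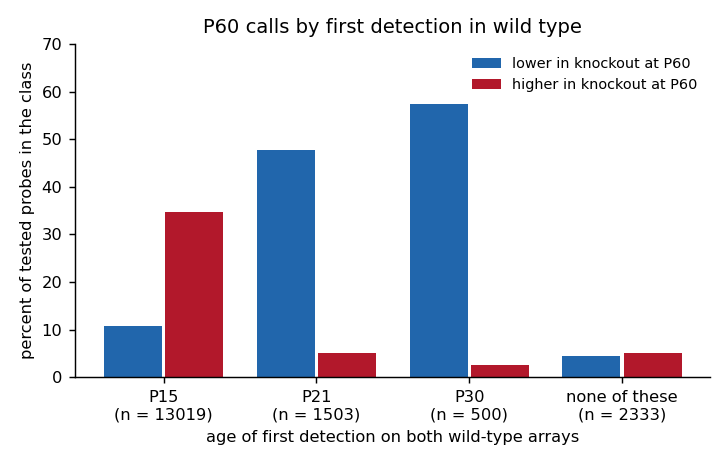
Percent of tested probes called lower (blue) or higher (red) in P60 knockout, by the age at which both wild-type arrays first detected the probe, with the number of probes in each class. The share of lower probes is 10.8%, 47.6% and 57.4% for first detection at P15, P21 and P30, and 4.41% for none of these. The classes rest on wild-type arrays alone, which favours falls in the P21 and P30 classes.

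The levels of the lower probes on the other arrays differed by class as well. The 716 lower probes first detected at P21 had a median log2 value of 7.20 and 7.21 on the P15 wild-type arrays, 8.21 and 7.95 at P21, 9.39 and 9.98 at P30 and 10.13 on both at P60. In knockout the same probes read 7.20 and 7.21 at P15, 7.29 and 7.27 at P21, and 7.36 and 7.35 at P30, then 7.36 and 7.34 at P60. The choice of the class sets the rise from P15 to P21 in wild type and the low P60 level in knockout. The P21 and P30 knockout arrays lay near the P15 level too. These arrays entered the choice only through the shared spread and the detection filter. The 1407 lower probes already detected at P15 had a knockout median of 8.41 and 8.45 at P60, close to the 8.36 and 8.37 of P15 wild type, whereas P60 wild type stood at 9.90 and 9.97. Being called lower at P60 was part of their choice, so these P60 levels are a description. On the P30 arrays, which entered this choice only in the same 2 ways, knockout read 8.57 and 8.49 against 9.44 and 9.85 in wild type.

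The higher probes ran the other way. Over the 4731 the wild-type median fell from 9.69 and 9.68 at P15 to 9.16 and 9.30 at P21, 8.96 and 8.77 at P30 and 8.73 and 8.67 at P60. In knockout it was 9.67 and 9.69 at P15, 9.42 and 9.48 at P21, 9.39 and 9.47 at P30 and 9.55 and 9.52 at P60. The P60 difference of these probes thus came with a decline in wild type and a near-level course in knockout. The probes were chosen on the P60 arrays, so their P60 medians are a description.

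**Figure D5:**
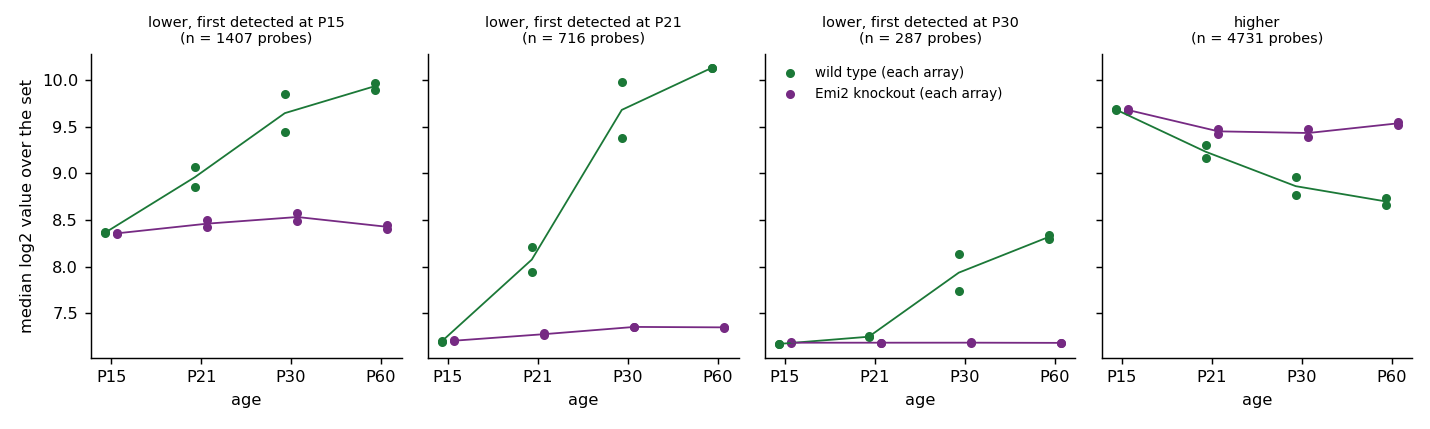
Median log2 value on each array, by age, for 3 classes of probes lower in P60 knockout and for the higher probes, with wild type in green and knockout in purple, and lines through the mean of the 2 arrays. Wild type rises in the 3 lower classes and falls in the higher set, while knockout changes little from P15 on. Detection in wild type from P15 to P30 and the P60 call chose the probes.

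Against P30, the same comparison on other arrays, most probes called at P60 already had the same sign of difference. A larger share of the lower than of the higher probes was also called there. Of the 2513 probes lower at P60, 1729 (68.8%) were lower at P30, which is 95.7% of the 1806 called lower there (background 10.4%). Of the 4731 higher, 2095 (44.3%) were higher at P30, 83.4% of the 2511 called there (background 14.5%). Calls in the opposite direction at P30 were made for 2 of the lower and 0 of the higher probes. The 784 lower probes without a lower call at P30 had a median log2 difference of -0.27 at P30 and -0.59 at P60, and 714 of them (91.1%) were negative at P30, where 32.3% of all tested probes were. For the 2636 higher probes without a higher call at P30 the medians were 0.33 and 0.64. Of these, 2570 (97.5%) were positive at P30, where 67.7% of all tested probes were. Without P30 wild type replicate 2 the shared percentages were 50.7% for lower and 18.9% for higher probes. Without P30 Emi2 knockout replicate 2 the higher share was 29.3%. The tests at both ages used one estimate of the spread per probe.

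Whether the genotype difference itself changed from P30 to P60 was tested directly. No probe passed the limma interaction test (0 of 17355, 0%), and 1292 (7.44%) had an unadjusted p under 0.05. Without P30 wild type replicate 2 the count was 563, and with an intensity trend in the prior variance it was 2. A larger number of calls at P60 than at P30 is therefore not a shown widening. The probe with the lowest interaction p was ILMN_2777744, which read 8.41 and 8.50 in P30 wild type and 9.70 and 9.80 at P60, while knockout was 7.16 and 7.17 at P30 and 7.28 and 7.38 at P60. Its genotype difference went from -1.29 to -2.42 (interaction limma adjusted p = 0.130). ILMN_2707043 had the lowest p of those in the other direction, at 7.94 and 8.30 in wild type and 7.79 and 8.03 in knockout at P30, then 7.42 and 7.30 against 8.45 and 8.53 at P60 (interaction limma adjusted p = 0.278).

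P60 knockout levels were compared with all 8 wild-type arrays of the series to see whether they occur in wild type at some age. For 1900 of the 2513 lower probes (75.6%) and 3356 of the 4731 higher probes (70.9%) the knockout values were not both beyond that range. Such probes may have a single knockout array beyond it. Both knockout arrays lay above every wild-type array for 1375 higher probes (29.1%), against 10.8% of all tested probes, and below every one for 613 lower probes (24.4%), against 4.85%. The calls use the same P60 arrays, so these shares are a description. ILMN_1212921 and ILMN_2602770 are examples above the range.

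The nearest wild-type age was also found for each probe, from the distance of its P60 knockout mean to the P15, P21 and P30 wild-type means. Among lower probes the nearest was P15 for 51.9%, P21 for 41.5% and P30 for 6.57%. Among higher probes it was P15 for 30.8%, P21 for 56.6% and P30 for 12.5%. Over all tested probes the shares were 26.4%, 42.9% and 30.7%, so that the share nearest to P21 among lower probes was close to that of all. The choice of the sets used the same P60 knockout arrays, so these shares are a description.

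Bright and dim probes differed in how often they fell. With probes ranked by their P30 wild-type level, which uses no P60 array, 33 of the brightest 100 and 140 of the next 400 were lower in P60 knockout. The share was 24.8% for ranks 1001 to 2000, 17.1% for ranks 5001 to 10000 and 5.32% below that, against 14.5% of all tested probes. The dimmest class had a median log2 value of 7.36 in P60 wild type. The lowest detected values on the P60 knockout arrays were 7.36 and 7.38, so such probes had little room to fall. How much of the trend this floor sets was not tested. Rises ran the other way among the brighter probes: 22 of the brightest 100 were higher, 128 of the next 400, 36.6% of ranks 501 to 1000, 37.8% of ranks 1001 to 2000 and 39.1% of ranks 2001 to 5000. The share was then 37.2% for ranks 5001 to 10000 and 13.4% for the dimmest, against 27.3% of all tested probes. The brightest 100 had a median log2 value of 14.41 in P60 wild type, on a scale capped at 15.39, which limits their rises. Ranking by a wild-type level also favours falls among bright probes. How much of these trends the cap and the ranking set was not tested.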

How the data were processed

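Probe signals came from a deposited table of signal intensity with no background correction or normalization, per the file headers. A detection p-value stood beside each intensity in the deposited table, per the file headers. It rose with signal in regular probes (Spearman correlation 0.961 across probes) and was read as 1 minus p. The main values were the deposited log2 values, which quantile normalization of the log2 signals over all 26511 rows gave to within 0.00276. The submitters' processing notes name limma. Rows numbered 1343048 to 2038782 were dropped as control rows.

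A model over 8 group means of all 16 arrays used limma 3.58.1 under R 4.3.3 (8 residual and 3.55 prior degrees of freedom), with the P60 difference as a contrast and Benjamini-Hochberg adjustment over 17355 probes. Errors after ± are standard errors of the fit. A bound ("at least") sets an undetected group at the higher of its own value and the lowest detected value of each array. Named probes were the 8 largest falls and rises (called, detected on both brighter arrays, groups apart), the 8 brightest in wild type, the 3 lowest interaction p each way and the probe named Fbxo43. Of regular probes, 24272 had 1 symbol, 1417 none and 0 several. Names were to be used only if ribosomal protein probes were detected at least 20 percentage points more often than olfactory ones. Members, lists and tests were chosen with earlier results of these data known. The number of arrays limits the precision. Alternatives covered background, scaling, centring, filters, the arrays fitted, a replicate block and leaving out each array.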

Additional observations from a re-analysis of the deposited data

Results flagged for a closer look

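The genotype difference changed from P21 to P60 by a limma test of the change itself, a comparison added after seeing the data. At 1276 of 17355 tested probes (7.35%) it moved downwards and at 1015 (5.85%) upwards. Leaving out each array in turn, the first count ran from 989 to 1381. The second was 352 without P60 wild type replicate 2, 584 without P60 wild type replicate 1, 537 without P60 Emi2 knockout replicate 1, 523 without P60 Emi2 knockout replicate 2 and 444 without P21 wild type replicate 2, and its highest was 1362. It was 663 with normexp background correction and 676 with 75th percentile scaling.

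Among the 822 control rows, left out of all tests, 3 differed at P60 by more than 1 on the log2 scale, and the 801 dim ones had a median difference of 0.0522 in size, the 21 brighter ones 0.405. ILMN_1379136 read 12.61 and 12.49 on the wild-type arrays against 14.00 and 14.04 on the knockout arrays, the largest rise, 1.46. ILMN_1377919 read 9.88 and 10.17 against 7.29 and 7.18, a difference of -2.79. The cause was not tested.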

How the results depend on the processing

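With normexp background correction the median difference was 0.288, at least 2-fold falls numbered 2109 and such rises 2678, 66.9% of lower and 37.0% of higher calls were shared with P30, and 27.3% of higher probes lay above the wild-type range. With 75th percentile scaling these were 0.0649 for the median, 65.6% and 50.3% shared, and 30.9% above the range. Tested against the median difference (then 0), 573 probes were higher by at least 2-fold, 65.2% of the P30-onset class were lower, 55.6% and 54.2% were shared, and 32.2% lay above the range. With no filter the median was 0.0421, and 66.6% and 42.8% were shared. The median was 0.158 with detection on at least 4 arrays, 0.208 with detection on at least 2 of the 4 P60 arrays (67.7% of the P30-onset class lower) and 0.181 with a detection p under 0.01 (73.7%, and 1233 probes in knockout only). With an intensity trend, 2 probes passed the P30 to P60 test and 39.6% of higher calls were shared. The cause of these shifts was not tested.

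Leaving out each of the 16 arrays in turn, there were 2046 to 2606 lower and 3001 to 4998 higher probes, of which 1354 to 1455 and 739 to 1036 changed at least 2-fold, and the median ran from 0.121 to 0.131. The P30 to P60 test gave 0 to 563 probes. Shared calls ran from 50.7% to 78.4% (lower) and 18.9% to 53.3% (higher), the P30-onset class from 37.9% to 65.6%, and the share above the range from 28.7% to 42.2%. Detection in 1 genotype only, asked of fewer arrays, ran from 845 to 1283 (wild type) and 788 to 1327 (knockout). From P21 to P60 the counts were 989 to 1381 more negative and 352 to 1362 more positive, the latter 663 with normexp and 676 with 75th percentile scaling.

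Same-numbered arrays of the 2 genotypes had correlated deviations of 0.218 at P60 and 0.0726 to 0.608 over the 4 ages. The 0.608, at P21, was the highest of 28 pairs of groups, of which 6 were over 0.1. The arrays were not fitted as pairs, and whether same-numbered arrays were processed together was not tested. The replicate block is a shift shared by all ages and cannot test pairing within an age. With the replicate block 2508 probes were lower and 4733 higher, and it moved no other count by over 1.5 times. No named probe that passed at P60 changed direction or stopped passing in any of the 26 alternatives, and ILMN_1247141 and ILMN_1248254, which did not pass, passed in 1 each.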

Other observations

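A pair of probes among the largest rises, chosen here after their values were seen, followed each other closely. ILMN_2847332 and ILMN_2943722 differed by a median of 0.0354 on the log2 scale over the 16 arrays and by at most 0.247, while their levels ran from 7.46 to 11.15. The gene table gives them different symbols, and whether they measure one transcript was not tested.

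Within each genotype few probes changed from P30 to P60 in limma. In knockout 19 rose (0.109%) and 5 fell (0.0288%), and in wild type 1 rose (0.00576%) and 0 fell (0%). At an unadjusted p under 0.05 in limma there were 1312 in knockout (7.56%) and 1863 in wild type (10.7%). These steps share arrays with the P60 comparison.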
